A study of Mus musculus with 18 samples.

Results

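The response of NaF cells, a mouse mammary carcinoma line, to palmitate was measured as 3 arrays of palmitate-treated cells set against 3 arrays of untreated cells, which is 6 of the 18 samples and 2 of the 6 groups of the study. Treated cells received palmitate at 10 µM for 6 hours in full medium, which was DMEM with 10% FBS. Control cells grew in the same full medium without treatment, and the labels name no carrier or vehicle for the fatty acid. The members are all 22180 genes with a probe set of a single gene symbol, each represented by the probe set with the highest mean over all arrays. Groups used only for comparison were cells given GW1516, a synthetic PPARδ agonist, or all-trans retinoic acid, each at 1 µM for 6 hours, and their own untreated control, with 3 arrays each. Those cells were switched, 48 hours ahead of the ligand, to medium whose 10% FBS had been charcoal-treated, which removes lipids and steroid-like ligands from serum. The last 3 arrays were of cells given TTNPB, a retinoic acid receptor agonist, at 1 µM for 6 hours after the same switch. They entered the model fitted to all 18 arrays. All groups are the same cell line, and the labels do not say whether the replicates were separate cultures, so the p-values speak only of the spread between arrays, which may be technical.

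Palmitate is the most common saturated fatty acid in mammals, both an end product of fatty acid synthesis and a substrate for membrane lipids, storage fat, sphingolipids and oxidation. Inside cells, fatty acids and retinoic acid are carried by small binding proteins. FABP5 delivers ligands to the nuclear receptor PPARδ and CRABP2 delivers retinoic acid to the retinoic acid receptors (RAR), and the series title places saturated fatty acids on FABP5 and retinoic acid signalling. Fatty acid and sterol synthesis are driven by the SREBP transcription factors, while an excess of saturated fatty acid in the endoplasmic reticulum (ER) is a known trigger of the unfolded protein response.

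More genes passed the test as falls than as rises, and most changes were under 2-fold. Of 22180 genes, 151 passed an adjusted p of 0.05 in limma (0.681%), of which 32 rose (0.144%) and 119 fell (0.537%). At an unadjusted p under 0.05 there were 501 genes higher and 1052 lower. Rises lay between 1.28-fold and 2.94-fold, and falls between 18.2% and 53.9%. A change of at least 2-fold was reached by 4 of the rises and 6 of the falls. All 151 called genes had the 3 palmitate arrays on one side of the 3 control arrays, as had 15.2% of all genes. Because these are bulk samples, fewer cells expressing a gene and less RNA per cell cannot be told apart.

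The calls rest on an estimate of spread shared by all 18 arrays. With the 6 full-medium arrays alone, 1 gene passed, Scarna17, beside 2221 genes at an unadjusted p under 0.05. Leaving out control replicate 3, control replicate 2 or palmitate replicate 2 in turn left 62, 67 and 95 calls. Rises made up 21.2% of the calls as deposited, 32.9% of 173 calls after quantile normalization of the arrays of each serum, and 12.5% to 31.6% without single arrays, lowest without palmitate replicate 3 and highest without palmitate replicate 2. Falls outnumbered rises in the deposited, quantile-normalized and leave-out fits, while the 1 call on the 6 full-medium arrays alone was a rise. After centring the arrays within bins of gene length, rises were 54.2% of 142 calls among 10875 genes above background, against 20.7% of 241 calls among the same genes without that centring. Centring the arrays on their medians left 32 calls, of which 5 were rises. Of the 37 called genes named under the rule given below, that step kept 10, namely Scarna17, Psmc6, Anxa1, Eif3e, Sptbn1, Crybg1, Tcf20, Luc7l, Acaca and Scd1.

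**Figure D1:**
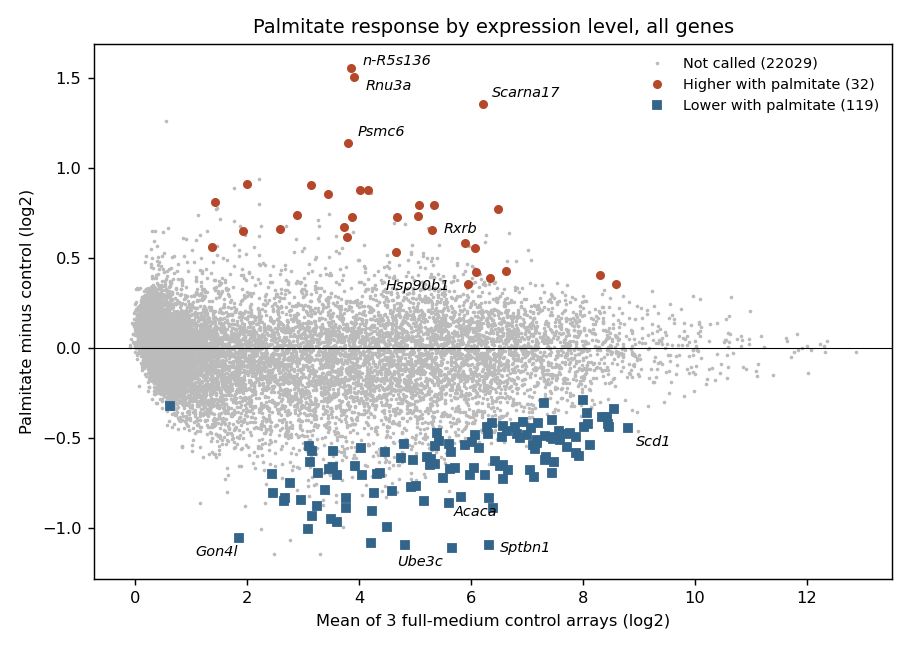
Each point is 1 of 22180 genes, with its mean over the 3 full-medium control arrays (log2) on the horizontal axis and palmitate minus control (log2) on the vertical axis. Red circles are the 32 genes higher with palmitate and blue squares the 119 lower, and the falls are spread over low, middle and high expression levels.

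Palmitate replicate 2 stood apart from the other full-medium arrays. The mean absolute distance of its genes to their group mean was 0.113 (log2), against 0.0816 to 0.0934 on the other 5. Its correlation with the other 5 arrays was 0.977 to 0.979, against 0.983 to 0.990 among the rest, and no pair of arrays shared more than 2.55% of its values. Olfactory and vomeronasal receptor genes, taken as the background of non-expressed genes, had a median of 0.379 on that array and 0.285 to 0.303 on the others. The background level, set at the 95th percentile of these 1392 receptor genes, was 0.628 in palmitate cells and 0.593 in control cells (log2), and 10932 genes lay above it.

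No difference was detected in the transcript of FABP5, the carrier named in the series title. Fabp5 (chromosome 3, 10012585 to 10016610 on GRCm38.p6) had log2 values of 2.75, 2.46 and 2.39 in palmitate cells, against 2.36, 2.88 and 2.48 in control cells. The arrays of both groups overlapped, and the difference was -0.04 ± 0.18 (SE, adjusted p = 1 in limma), with a 95% interval of -0.41 to 0.33. Ppard, which encodes PPARδ, differed by 0.13 ± 0.15 and also overlapped between the groups. Of 15 measured genes of intracellular lipid-binding proteins, 5 were above background, with a median of -0.09. None was called, against 0.681% of all 22180 genes. Crabp2 was under background in both groups, with means of 0.44 and 0.48 in palmitate and control cells (log2).

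Among the nuclear receptors for retinoids and fatty acids and their coregulators, 12 of 15 measured genes were above background, with a median of -0.03. Of the 15, 1 passed the test, against 0.681% of all 22180 genes. Rxrb encodes RXRβ, a member of the RXR family, the obligate partners of RARs and PPARs on DNA. Its log2 values were 6.11, 5.92 and 5.87 in palmitate cells, against 5.56, 5.31 and 5.06 in control cells. Every palmitate array lay above every control array, and the rise was 1.58-fold (log2 0.66 ± 0.14 SE, adjusted p = 0.0309). That call held in 1 of the 6 fits that left out an array, the one without control replicate 1, and the adjusted p reached 0.202 in the others. Rara and Rarg, which encode the receptors RARα and RARγ, differed by -0.04 ± 0.16 and -0.14 ± 0.22 and overlapped between the groups. Rarb, itself a classical target of retinoic acid, was under background.

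None of the retinoic acid receptor targets was called, an ordinary outcome for so short a list when 0.681% of all 22180 genes were called. Of 18 targets measured, 8 were above background, with a median difference of 0.02 against -0.04 for all 10932 genes above background. The closest was Tgm2, the gene of tissue transglutaminase, which retinoic acid is known to induce. Tgm2 had log2 values of 7.57, 7.70 and 7.60 in palmitate cells, against 7.24, 7.34 and 7.24 in control cells. The groups did not overlap, and the difference of 0.35 ± 0.08 had an adjusted p of 0.0510. It was 0.0423 with a robust variance prior, 0.0318 after quantile normalization and 0.0191 with dim genes left out, but 0.106 with the replicate number as a block, 0.162 on the 6 full-medium arrays alone and 0.360 with arrays centred on their medians. With 1 of the 6 arrays left out it lay between 0.0859 and 0.221. Cyp26b1, a retinoic acid-degrading enzyme whose gene is a sensitive reporter of RAR activity, was 2.12, 2.09 and 2.04 in palmitate cells and 2.09, 1.96 and 2.07 in control cells. Cyp26a1, Dhrs3 and Nrip1, other targets of the pathway, lay under background in both groups.

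None of the 21 measured PPAR targets was called, and the median of the 15 above background was -0.10. The share called among all 22180 genes was 0.681%, so no call in a list of this size is ordinary. Plin2 encodes the lipid droplet coat protein perilipin 2, whose gene responds to fatty acids. It had log2 values of 6.61, 6.51 and 6.57 in palmitate cells, against 6.35, 5.95 and 6.25 in control cells. The arrays did not overlap, but the difference of 0.38 ± 0.16 had an adjusted p of 0.539. Cpt1a, the gate of mitochondrial fatty acid import, differed by -0.16 ± 0.10 and Pdpk1, a kinase upstream of AKT, by -0.28 ± 0.18. Pdk4 and Angptl4, the usual transcript readouts of PPARδ, were under background, as was Cd36, a fatty acid receptor.

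**Figure D2:**
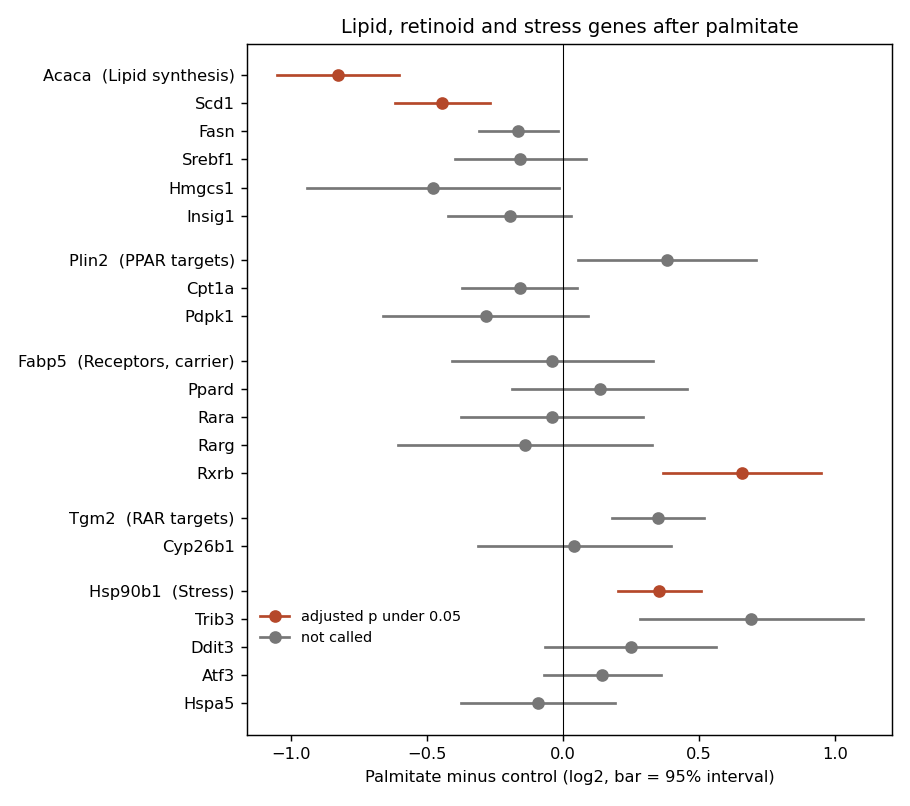
Points are palmitate minus control (log2, 3 arrays each) with 95% intervals, for lipid synthesis genes, PPAR targets, the carrier Fabp5 with the receptors, RAR targets and stress genes. Red marks genes with an adjusted p under 0.05, which are Acaca and Scd1 on the lower side and Rxrb and Hsp90b1 on the higher side, and grey marks genes not called.

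The enzymes that make and desaturate fatty acids moved down where they passed the test. Of 25 measured genes of fatty acid synthesis, desaturation and elongation, 15 were above background, 2 fell and none rose. Among all 22180 genes, 119 fell (0.537%) and 32 rose (0.144%). Acaca (chromosome 11, 84129635 to 84401651) encodes acetyl-CoA carboxylase 1, the committed and rate-limiting step of fatty acid synthesis. Its log2 values were 4.95, 4.87 and 5.14 in palmitate cells, against 5.96, 5.78 and 5.70 in control cells. All palmitate arrays were below all control arrays, and Acaca was 43.7% lower (log2 -0.83 ± 0.11 SE, adjusted p = 0.00106). The call remained without any one of the 6 arrays, with an adjusted p of at most 0.0077. The reference annotation lists Tada2a within the bounds of Acaca.

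Scd1 (chromosome 19, 44394450 to 44407709) encodes stearoyl-CoA desaturase 1, which converts palmitate and stearate to their monounsaturated forms. Its log2 values were 8.27, 8.40 and 8.44 in palmitate cells, against 8.77, 8.90 and 8.77 in control cells. The groups did not overlap, and Scd1 was 26.5% lower (log2 -0.44 ± 0.08 SE, adjusted p = 0.0124). That call was lost without palmitate replicate 1, control replicate 2 or control replicate 3, with an adjusted p of up to 0.0876.

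The median of the 15 synthesis genes above background was -0.14. Of all 22180 genes, 1052 were lower and 501 higher at an unadjusted p under 0.05. Among the 25 synthesis genes, 6 were lower and none higher. Besides Acaca and Scd1 these were Elovl5 (-0.36, adjusted p = 0.234), Acly (-0.31, 0.236), Elovl6 (-0.39, 0.355) and Fasn (-0.16, 0.566), of which all but Fasn were picked out after their values were seen. Fasn, the multienzyme that assembles palmitate itself, had log2 values of 8.68, 8.76 and 8.70 in palmitate cells and 8.85, 8.94 and 8.85 in control cells. Its groups did not overlap. Srebf1, the gene of the transcription factor that drives this set, differed by -0.16 ± 0.11 with overlapping arrays.

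Cholesterol synthesis, the other arm under SREBP control, had no called gene, against 0.681% called among all 22180 genes. All 20 measured genes were above background, with a median of -0.14, and at an unadjusted p under 0.05 there were 4 lower and none higher. That threshold gave 1052 lower and 501 higher among all 22180 genes. Hmgcs1, the enzyme that forms HMG-CoA, had values of 1.68, 1.96 and 2.16 in palmitate cells, against 2.05, 2.73 and 2.45 in control cells, with a difference of -0.48 ± 0.22. Insig1, an ER anchor that restrains SREBP processing, differed by -0.20 ± 0.11. The groups overlapped for both genes.

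The routes that consume fatty acids held no called gene either, against 0.681% called among all 22180 genes. Medians of the members above background were -0.14 for fatty acid uptake and activation (10 of 15 measured), -0.14 for sphingolipid and ceramide synthesis (19 of 24), 0.02 for glycerolipid synthesis and lipid droplets (20 of 24) and -0.02 for fatty acid oxidation (all 21). Sptlc2, a subunit of the palmitate-using first enzyme of sphingolipid synthesis, differed by -0.11 ± 0.11. Its 3 palmitate arrays, at 6.72, 6.75 and 6.56, lay just under control arrays at 6.77, 6.77 and 6.80.

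Most ER stress genes were not called. Of 20 measured, 19 were above background, 1 rose and none fell, and their median was 0.04. Among all 22180 genes, 0.144% rose and 0.537% fell. At an unadjusted p under 0.05, 4 of the 20 were higher and 1 lower, against 501 higher and 1052 lower among all 22180 genes. The called gene was Hsp90b1 (chromosome 10, 86690841 to 86705444), which encodes GRP94, the ER member of the HSP90 chaperones and a textbook target of the unfolded protein response. Hsp90b1 had log2 values of 6.32, 6.27 and 6.33 in palmitate cells, against 5.82, 5.98 and 6.06 in control cells. It rose 1.28-fold (log2 0.35 ± 0.07 SE, adjusted p = 0.0269) with no overlap. The call held in 1 of the 6 fits that left out an array, the one without control replicate 3, and the adjusted p reached 0.120 in the others.

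The promoter of Hsp90b1 is shown because it is the classical ER stress promoter among the called genes. It covers 250 bases before and 50 bases from the transcript start, from RefSeq on GRCm38.p6 at chr10:86705395-86705694, minus strand, with letters written 5′ to 3′ along the gene.
Hsp90b1: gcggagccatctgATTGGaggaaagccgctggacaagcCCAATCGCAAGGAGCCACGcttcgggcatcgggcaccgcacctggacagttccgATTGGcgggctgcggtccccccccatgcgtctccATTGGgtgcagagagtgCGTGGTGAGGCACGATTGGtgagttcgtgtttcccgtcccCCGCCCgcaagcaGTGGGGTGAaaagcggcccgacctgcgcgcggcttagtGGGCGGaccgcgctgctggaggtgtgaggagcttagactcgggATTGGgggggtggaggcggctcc
Capitals mark matches, on either strand, to 6 searched motifs. The ER stress element, CCAAT and CCACG with 9 bases between them, occurred at positions -212 to -194 on the sense strand and -107 to -89 on the other, counted from the start site. Over 32851 RefSeq promoters of this length, 0.119% held that element. The window also held 6 CCAAT boxes (CCAAT, in 37.4% of promoters), 2 of them inside the ER stress elements, 2 GC boxes (GGGCGG, 35.7%) and 1 sterol regulatory element (TCACNCCAC, 1.24%). It held neither the TATA box TATAAA (13.6%) nor the direct repeat of nuclear receptors, AGGTCA and AGGTCA with 1 base between them (0.0396%).

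The other ER chaperone gene of this class, Hspa5, which encodes BiP, was not called. Hspa5 had log2 values of 4.48, 4.76 and 4.44 in palmitate cells, against 4.54, 4.60 and 4.82 in control cells, and the difference was -0.09 ± 0.13. Trib3, a pseudokinase induced in the integrated stress response, had values of 5.59, 5.02 and 5.36 in palmitate cells, against 4.49, 4.63 and 4.76 in control cells. The arrays did not overlap, but the difference of 0.69 ± 0.20 had an adjusted p of 0.154. It was 0.0344 after quantile normalization, 0.369 with arrays centred on their medians and 0.116 to 0.475 without single arrays. Ddit3, the gene of the stress factor CHOP, differed by 0.25 ± 0.15, and Atf3, a stress-induced transcription factor, by 0.15 ± 0.10. Both overlapped between the groups.

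The largest rises were in short non-coding RNAs of the ribosome and of RNA modification. Scarna17 is a guide RNA of Cajal bodies, where it directs modification of spliceosomal RNA (chromosome 18, 74778394 to 74778455, within the bounds of the long non-coding gene Gm41774). Its log2 values were 7.65, 7.53 and 7.52 in palmitate cells, against 6.15, 6.34 and 6.14 in control cells. The arrays of each group lay close together and far from the other group, and the rise was 2.56-fold (log2 1.35 ± 0.16 SE, adjusted p = 0.00051). Scarna17 was called without any one of the 6 arrays (adjusted p at most 0.00405) and on those arrays alone (0.00348).

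Scarna6, another Cajal body guide RNA that lies inside Atg16l1, had values of 7.34, 6.91 and 7.49 in palmitate cells, against 6.47, 6.54 and 6.41 in control cells. It rose 1.71-fold (log2 0.77 ± 0.13 SE, adjusted p = 0.00813), and the adjusted p was 0.0523 without control replicate 3. Rnu3a, a copy of the U3 RNA needed to cleave ribosomal RNA precursors, was 5.82, 4.65 and 5.79 in palmitate cells and 3.64, 3.76 and 4.34 in control cells. The spread within the groups of Rnu3a was wide, and the 2.84-fold rise (adjusted p = 0.0487) was called only without palmitate replicate 2 among the 6 fits that left out an array, with an adjusted p of up to 0.209. n-R5s136, a copy of the 5S ribosomal RNA gene, was 4.85, 5.81 and 5.58 in palmitate cells and 4.43, 3.46 and 3.68 in control cells, a 2.94-fold rise (adjusted p = 0.0356, and up to 0.209 without palmitate replicate 2 or 3 or control replicate 2 or 3). Rnu3a and n-R5s136 belong to families of near-identical copies, so their probe sets may read several loci. The call of Rnu3a was also lost when all probe sets of a gene were averaged.

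Most RNAs of this class were not called. Of 82 small nucleolar, Cajal body and spliceosomal RNAs measured, 72 were above background, 3 rose and none fell, and the median was -0.02. Among all 22180 genes, 32 rose (0.144%) and 119 fell (0.537%). The mean log2 level of the 82 ran from 3.10 to 3.81 on palmitate arrays and from 3.38 to 3.58 on control arrays, so the groups overlapped. Of 483 microRNA genes, 109 were above background and none was called.

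Among protein-coding genes, the largest called rise was in Psmc6 (chromosome 14, 45329823 to 45349074), an ATPase subunit of the proteasome cap. Psmc6 had log2 values of 5.05, 4.43 and 5.35 in palmitate cells, against 3.96, 3.48 and 3.97 in control cells. The groups did not overlap, and it rose 2.2-fold (log2 1.14 ± 0.17 SE, adjusted p = 0.00351). Of 39 proteasome genes, 36 were above background, and Psmc6 was the 1 that was called, with a list median of 0.03. Among all 22180 genes, 0.681% were called. The largest fall among called genes was in Ube3c (chromosome 5, 29569242 to 29676077), a ubiquitin ligase that associates with the proteasome. Ube3c had values of 4.79, 4.45 and 4.36 in palmitate cells, against 5.72, 5.64 and 5.60 in control cells. It was 53.9% lower (log2 -1.12 ± 0.19 SE, adjusted p = 0.00789), again with no overlap.

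The promoters of these proteasome genes, the largest protein-coding rise and the largest fall, are given from RefSeq on GRCm38.p6 for the same window, at chr14:45329574-45329873 for Psmc6 and chr5:29568992-29569291 for Ube3c, both on the plus strand.
Psmc6: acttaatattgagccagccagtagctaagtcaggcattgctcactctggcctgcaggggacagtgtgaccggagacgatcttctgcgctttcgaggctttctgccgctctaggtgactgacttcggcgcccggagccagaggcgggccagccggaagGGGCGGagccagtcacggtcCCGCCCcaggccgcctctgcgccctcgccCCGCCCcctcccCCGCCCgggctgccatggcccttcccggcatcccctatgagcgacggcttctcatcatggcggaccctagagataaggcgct
Ube3c: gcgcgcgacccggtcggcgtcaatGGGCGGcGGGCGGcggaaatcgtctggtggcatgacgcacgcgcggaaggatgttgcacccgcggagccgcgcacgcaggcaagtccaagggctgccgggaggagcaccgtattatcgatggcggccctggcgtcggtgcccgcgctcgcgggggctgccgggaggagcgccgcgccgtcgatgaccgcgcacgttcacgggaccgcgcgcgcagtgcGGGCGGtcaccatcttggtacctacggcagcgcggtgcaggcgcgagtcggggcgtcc
Capitals again mark motif matches on either strand. Psmc6 held 4 GC boxes (GGGCGG) and Ube3c held 3, and neither held another of the 6 motifs, so the same kind of match stood before a gene that rose and a gene that fell. The window given for Acaca, at a transcript start inside the gene, held none of the 6.

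Other large rises took in a mix of functions. Anxa1 encodes annexin A1, a phospholipid-binding protein that restrains inflammation. It was 4.28, 3.81 and 4.05 in palmitate cells, against 2.87, 3.39 and 3.16 in control cells (log2 0.91 ± 0.14 SE, adjusted p = 0.0046). Eif3e, a subunit of the translation initiation factor eIF3, was 4.63, 5.07 and 4.99 in palmitate cells, against 3.90, 4.08 and 4.07 in control cells (0.88 ± 0.12, 0.00157). Gpx8, a peroxidase of the ER membrane, was 5.83, 5.94 and 5.82 in palmitate cells, against 4.89, 5.20 and 5.11 in control cells (0.80 ± 0.13, 0.0047). None of these overlapped between the groups, and with Scarna17 and Psmc6 they were the 5 of the 15 largest rises whose calls remained without any one of the 6 arrays.

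The remaining rises among the 15 largest were less stable. They were Yme1l1, a mitochondrial inner membrane protease (log2 0.91, adjusted p = 0.00968), Emc2, a subunit of the ER membrane protein insertase (0.88, 0.0268), Sarnp, an mRNA export factor (0.86, 0.0154), Crbn, the substrate receptor of a ubiquitin ligase (0.81, 0.0403), Mpc1, a subunit of the mitochondrial pyruvate carrier (0.79, 0.0184), Nae1, which activates NEDD8 (0.74, 0.0189), and Ccpg1os (0.73, 0.0181). Without single arrays their adjusted p reached 0.0578 to 0.175. Yme1l1 lost its call without control replicate 2 or 3, and the others lost theirs in 3 to 5 of the 6 fits, with each of the 6 arrays deciding at least 1 call. The call of Mpc1 was also lost when all probe sets of a gene were averaged.

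The largest falls included parts of the membrane skeleton, of endosomal traffic and of chromatin. Sptbn1 (chromosome 11, 30099395 to 30268384), which encodes the spectrin chain βII beneath the plasma membrane and a SMAD adaptor, had the smallest adjusted p of the named genes. Its log2 values were 5.60, 4.93 and 5.16 in palmitate cells, against 6.40, 6.25 and 6.33 in control cells. All palmitate arrays lay below all control arrays, and Sptbn1 was 53.2% lower (log2 -1.10 ± 0.12 SE, adjusted p = 0.000284).

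Chromatin and RNA-processing genes were also among the 15 largest falls. Tcf20, a transcriptional coregulator, was 5.60, 5.34 and 5.59 in palmitate cells, against 6.36, 6.42 and 6.42 in control cells (log2 -0.89 ± 0.11 SE, adjusted p = 0.000974). Baz2a, which silences ribosomal RNA genes, was 4.85, 4.33 and 5.06 in palmitate cells, against 5.67, 5.57 and 5.60 in control cells (-0.87 ± 0.15, 0.0078). Luc7l, a splicing factor of the U1 particle, was 2.44, 2.08 and 2.56 in palmitate cells, against 3.15, 3.45 and 3.12 in control cells (-0.88 ± 0.14, 0.00519). Crybg1, a gene of the crystallin-like family also known as Aim1, was 3.32, 3.44 and 3.74 in palmitate cells, against 4.63, 4.51 and 4.35 in control cells (a value 50% lower, with an adjusted p of 0.00106). The arrays of these genes did not overlap. Together with Ube3c and Sptbn1, these 4 were the falls among the 15 largest that remained called without any one of the 6 arrays.

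**Figure D3:**
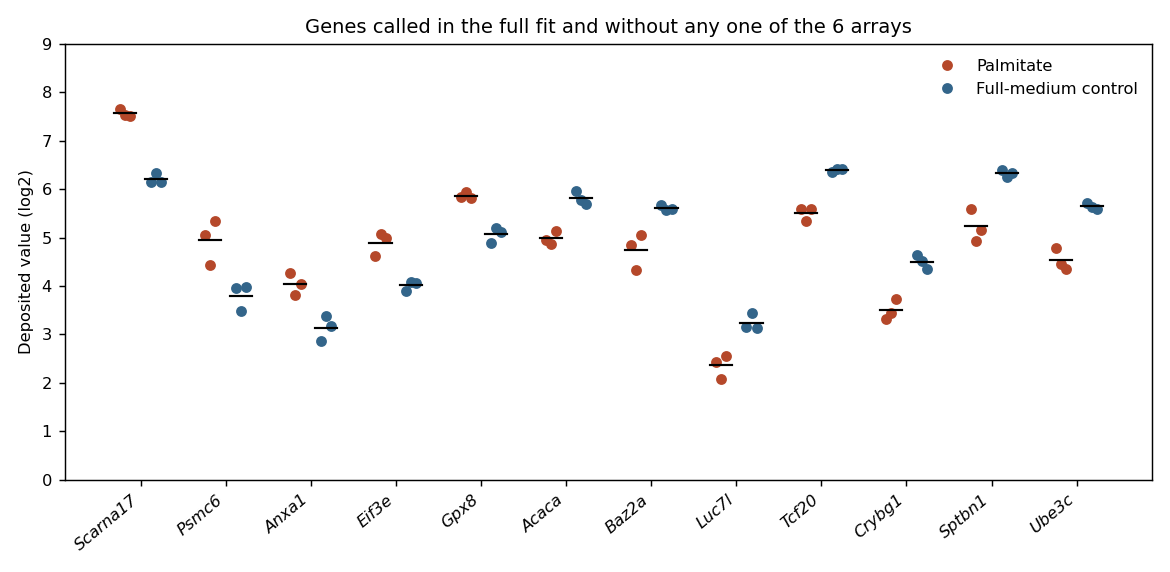
Points are the deposited log2 values of the 3 palmitate arrays (red, left) and the 3 full-medium control arrays (blue, right) for the 12 named genes whose calls remained without any one of the 6 arrays, with a black line at each group mean. The 5 rises stand on the left, led by Scarna17, and the 7 falls on the right, ending with Ube3c.

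The other falls among the 15 largest lost their call without at least 1 array. They included Cemip2, a cell surface hyaluronidase (log2 -1.10, adjusted p = 0.0105), Snx27, which recycles receptors from endosomes (-1.09, 0.022), Osbpl11, an oxysterol-binding protein relative (-1.01, 0.0383), Ric1, a Golgi exchange factor (-0.95, 0.00866), and Kif13a, an endosomal kinesin (-0.89, 0.0161). Dock8, an activator of the GTPase CDC42, fell by 0.91 (0.00793), Dhx57, a putative RNA helicase, by 0.94 (0.0149), and Gon4l, a transcriptional regulator, by 1.06 (0.0122) to a mean of 0.79 in palmitate cells, close to background, against 1.85 in control cells. Without single arrays the adjusted p of these genes reached 0.0528 to 0.217. Ric1 and Dock8 lost their call without control replicate 2, Cemip2 without palmitate replicate 2 or control replicate 3, and Snx27 and Gon4l without palmitate replicate 2 or control replicate 2 or 3. Dhx57, Osbpl11 and Kif13a lost theirs in 3, 4 and 5 of the 6 fits. Pdpr, a regulator of pyruvate dehydrogenase phosphatase, was 1.86, 1.92 and 1.64 in palmitate cells, against 2.52, 2.76 and 2.71 in control cells (-0.85 ± 0.16, adjusted p = 0.0131, and up to 0.0776 without palmitate replicate 3 or control replicate 2 or 3).

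Lists of energy and growth genes outside lipid metabolism held few calls, as did all 22180 genes together (0.681%). Of 89 oxidative phosphorylation subunits, 77 were above background with a median of 0.05. At an unadjusted p under 0.05, 13 of the 89 were higher and 1 lower, against 501 higher and 1052 lower among all 22180 genes. Cox4i1, a subunit of cytochrome c oxidase, was the 1 that was called. It was 8.88, 8.95 and 8.99 in palmitate cells, against 8.55, 8.58 and 8.63 in control cells, a 1.28-fold rise (adjusted p = 0.0105, and up to 0.0586 without palmitate replicate 3 or control replicate 2). Cytosolic ribosomal protein genes had a median of 0.05 (58 of 63 above background) and cell cycle and DNA replication genes of -0.12 (all 24), with none called. Hypoxia and glycolysis genes (-0.06), apoptosis and growth arrest genes (-0.05), immediate early genes (-0.03) and NRF2 and AhR targets (0.06) likewise held no call, nor did the histone genes (0.11), the targets of TGF-β and epithelial-mesenchymal transition (0.11) and the zinc finger genes (-0.04). Myc differed by -0.19 ± 0.13 and Txnip, a glucose-responsive arrestin, by -0.17 ± 0.10, and neither overlapped between the groups.

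No inflammatory gene was called, against 0.681% of all 22180 genes. Of 23 inflammatory and NF-κB genes 9 were above background, and of 17 interferon-response genes 8, with medians of 0.01 and -0.02, and no interferon gene was called either. Il6 was under background in both groups. Cxcl1, a neutrophil chemokine, had values of 1.03, 1.17 and 0.89 in palmitate cells and 0.73, 0.83 and 0.78 in control cells, a difference of 0.25 ± 0.17 with no overlap and an adjusted p of 1.

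**Figure D4:**
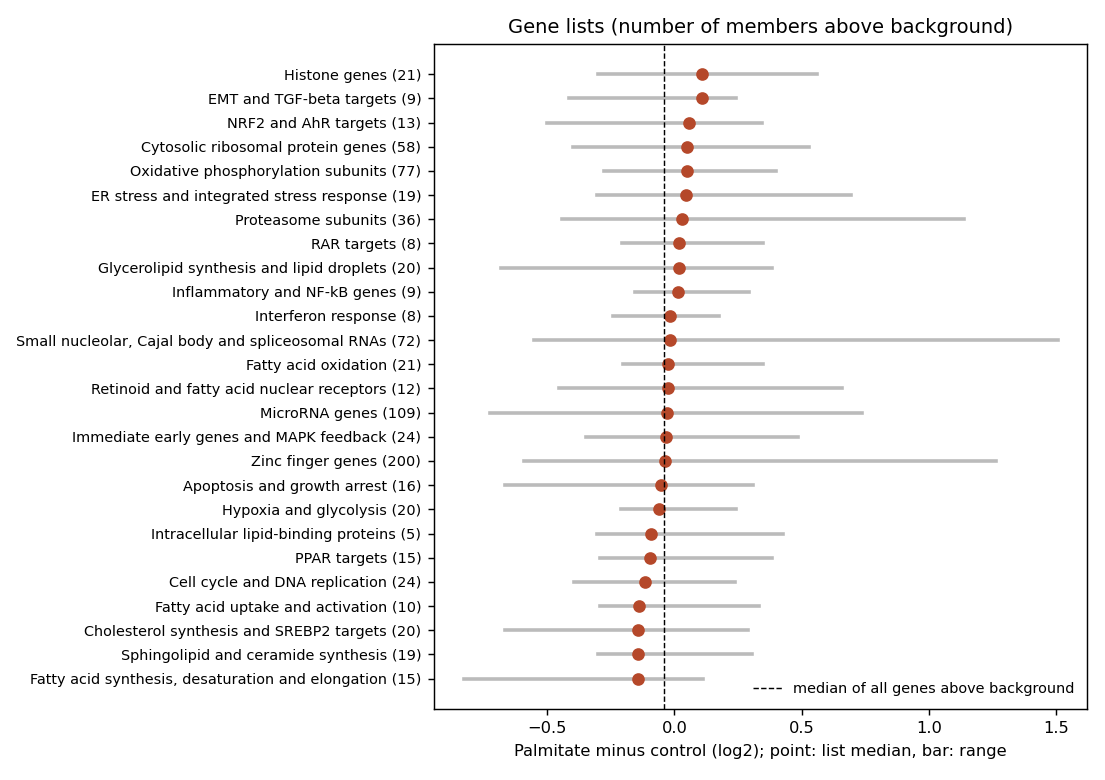
Points are the medians of palmitate minus control (log2) over the members of each gene list that were above background, and grey bars are their ranges, with the number of members in brackets. The dashed line is the median of all 10932 genes above background at -0.04, and the lowest medians are those of fatty acid, sphingolipid and cholesterol synthesis and of fatty acid uptake, each at -0.14.

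Cell type markers were set against the label of the line. Of 12 luminal epithelial markers, 8 were above background, 1 rose and 1 fell, against 0.144% and 0.537% of all 22180 genes. Krt18 had a mean of 8.38 in palmitate cells and 8.23 in control cells, while Epcam, Cldn7, Ehf and Esrp1 were under background in both groups. In the same order, Erbb2 was at 6.31 and 6.49 and Cdh1 at 3.21 and 3.38. Krt8 (1.53 and 1.44), Elf3 (1.16 and 0.98) and Krt19 (0.74 and 0.83) lay closer to the background of 0.628 and 0.593. Cldn3, the gene of a tight junction protein, was 8.68, 8.70 and 8.77 in palmitate cells, against 8.28, 8.24 and 8.40 in control cells, and rose 1.33-fold (adjusted p = 0.0123, and up to 0.0804 without palmitate replicate 3 or control replicate 2). Erbb3, a receptor of the HER family, was 5.05, 4.56 and 4.71 in palmitate cells, against 5.41, 5.31 and 5.77 in control cells, and was 39.4% lower (adjusted p = 0.0422). The call of Erbb3 held in 1 of the 6 fits that left out an array, the one without palmitate replicate 1, and reached an adjusted p of 0.257 in the others. No marker of basal, fibroblast, adipocyte, macrophage, lymphocyte or endothelial cells was called. Of these lists 2 of 7, 2 of 8, 2 of 7, 2 of 8, 1 of 7 and 2 of 8 measured genes were above background, and Ptprc, Adipoq, Pecam1 and Kdr were under it. Those above background included the endothelial genes Cdh5, at 7.29 in palmitate cells and 7.77 in control cells, and Egfl7, at 5.57 in palmitate cells and 5.36 in control cells. They also included Lipe, at 3.30 in palmitate cells and 3.19 in control cells, and Pdgfra, at 2.26 in palmitate cells and 2.47 in control cells.

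The palmitate effect was next set against the effect of the PPARδ agonist. This comparison asks whether the fatty acid and GW1516 shift the same genes by the same amount, and the groups lie in different sera, so an influence of serum on the difference cannot be told apart from that of the ligand. The effects differed for 280 of 22180 genes (1.26%, 46 positive and 234 negative) in limma. Acaca changed by -0.83 with palmitate and 0.06 with GW1516, a difference of -0.89 (adjusted p = 0.00725). Scd1 changed by -0.44 with palmitate and 0.34 with GW1516, a difference of -0.79 (adjusted p = 0.00322), so the desaturase gene fell with the fatty acid and rose with the agonist (adjusted p = 0.0325 for GW1516). Cpt1a, a direct PPARδ target, changed by -0.16 with palmitate and 0.71 with GW1516, and this difference of -0.87 passed too (adjusted p = 0.00547). For Plin2 the effects were 0.38 and 0.35, with a difference of 0.03 and an adjusted p of 0.986. The differences of Acaca, Scd1 and Cpt1a passed when any one of the 12 arrays was left out, and that of Cpt1a had an adjusted p of 0.0545 with arrays centred on their medians. The whole count ran from 125 without control replicate 2 in full medium to 611 without GW1516 replicate 3, and positive differences made up 34.9% after quantile normalization, against 16.4% as deposited.

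Against retinoic acid, 568 genes differed in effect (2.56%, 109 positive and 459 negative). The same limits hold here, and the retinoic acid effect had a Spearman correlation of 0.264 with gene length. Cyp26b1 changed by 0.04 with palmitate and 2.62 with retinoic acid, a difference of -2.58 (adjusted p = 1.13e-05). Tgm2 changed by 0.35 with palmitate and by 0.73 with retinoic acid, and the difference of -0.38 did not pass (adjusted p = 0.0860). Acaca and Scd1 again differed, by -0.99 (adjusted p = 0.00136) and -0.88 (0.000452), with retinoic acid effects of 0.16 and 0.44. Rxrb changed by 0.66 with palmitate and -0.29 with retinoic acid, a difference of 0.95 (adjusted p = 0.0121, and 0.0636 with arrays centred on their medians). Hsp90b1 rose with each of the ligands, by 0.35 with palmitate, 0.59 with GW1516 and 0.60 with retinoic acid, and neither difference of effects passed (adjusted p = 0.394 and 0.283). The count ran from 306 to 496 without single arrays, and positive differences made up 40.1% after quantile normalization, against 19.2% as deposited.

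The direction of a gene's change went with the length of the gene in the genome. Over 10875 genes above background with a known span, the Spearman correlation of palmitate minus control with genomic span was -0.264. For the effects of GW1516, retinoic acid and TTNPB, which share a control, it was 0.236, 0.264 and 0.114. This is a description over genes measured on the same arrays. The median span was 11.2 kb for the 32 rises and 65.9 kb for the 119 falls, against 19.7 kb for all genes. Among 1824 genes of up to 5 kb, 9 rose and 5 fell. Among 557 genes over 160 kb, none rose and 16 fell (2.87%), Acaca and Sptbn1 among them. Single arrays differed along the same axis. For genes of 80 to 160 kb the median distance from the 6-array mean was -0.13 on palmitate replicate 2, -0.03 on palmitate replicates 1 and 3, and -0.00199 on control replicate 1, but 0.10 and 0.08 on control replicates 2 and 3.

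Centring the arrays within bins of genomic span was an alternative chosen after the data were seen, and was set against a fit of the same 10875 genes without centring. Of these genes 142 were called with centring, 77 rises and 65 falls, against 241 without it, 50 rises and 191 falls. Both fits called 111 genes, which took in 46 of the 50 rises and 65 of the 191 falls. Over all 22180 genes, without centring, 151 were called, so the number of genes tested also moved the count. Of the 37 called genes named under the rule given below, all but Erbb3 were called with centring on this smaller set. Whether array, RNA or labelling properties that go with gene length had a part in the excess of falls was not tested.

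**Figure D5:**
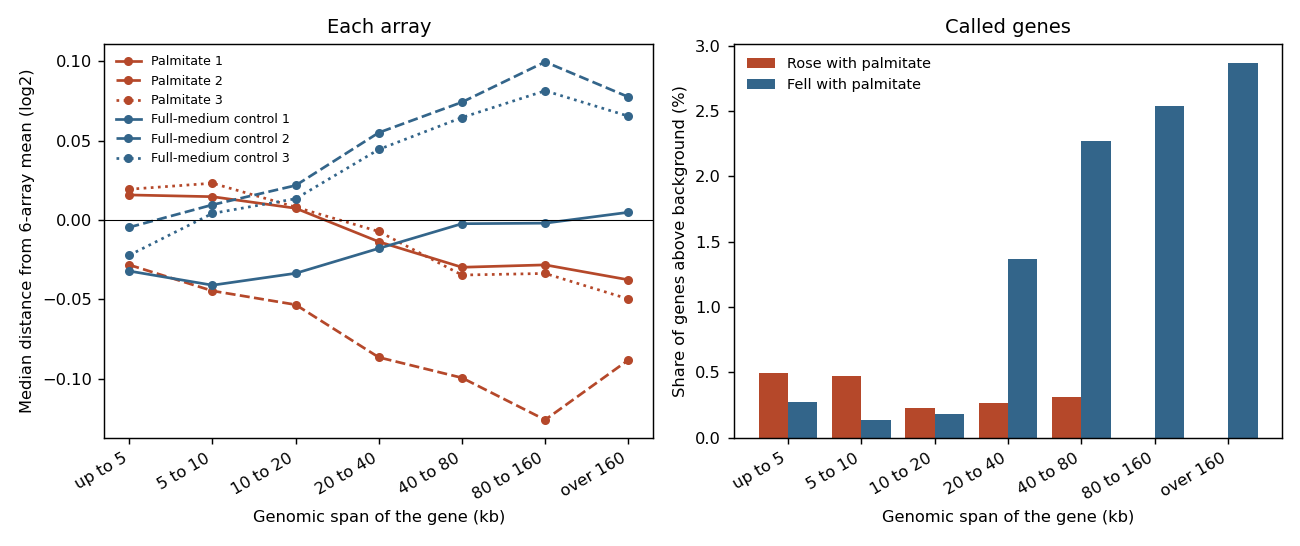
Left, the median distance of each of the 6 arrays from their common mean (log2) by genomic span of the gene in kb, with palmitate arrays in red and full-medium controls in blue. Right, the percentage of genes above background in each span class that rose (red) or fell (blue) with palmitate, where falls reach 2.87% and rises 0 over 160 kb.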

How the data were processed

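Total RNA of NaF cells was measured on 18 Affymetrix mouse arrays, 3 in each of 6 groups, of which the 6 full-medium arrays form the main comparison. The authors deposited log2 values for 41345 probe sets on each array. Partek is named in the submitters' processing notes. Its version, the background correction and the normalization are not given in the sources used here, and the log2 scale was inferred from how far the values reach. Probe-set medians were 0.473 to 0.548 on the full-medium arrays and 1.06 to 1.32 on the charcoal-serum arrays, so levels were compared only within a serum. Arrays carry no counting depth, and their number limits the precision.

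Of the probe sets, 23521 had 1 symbol in GEO's platform annotation, 1814 had several and 16010 had none, and the last 2 kinds were left out. Symbols of 23328 probe sets were updated by Entrez number in RefSeq's table for GRCm38.p6. The brightest probe set was kept for the 1082 genes with several. A model with 1 mean per group was fitted in limma 3.58.1 (R 4.3.3) to the 18 arrays together, with a trended variance and 12 residual degrees of freedom. P-values were 2-sided and adjusted by Benjamini-Hochberg over all 22180 genes, and every adjusted p in the text comes from such a limma fit. The difference of the palmitate effect from those of GW1516 and retinoic acid was a contrast in the same fit.

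The members, the 26 gene lists, the background definition and the tests were chosen with earlier results of these data known. Named genes were the 15 largest rises and 15 largest falls among the called genes with no overlap between arrays, leaving out symbols of provisional kind, then up to 4 called members of each list and 37 genes given by name. Acsl1, Acsl3 and Scd2 had no probe set of a single symbol and are not analysed here. Replicate numbers were not used to pair the arrays in the main fit. Deviations of same-numbered palmitate and control arrays from their group means correlated at -0.078, -0.050 and 0.064 over 10932 genes. For arrays of unlike number the correlations ran from -0.0968 to 0.133. With 3 arrays in each group, these values cannot show whether replicates were paired. Promoter sequences were found for 5 of 6 genes looked up. The fitting scripts were tested on simulated arrays in which some genes had been changed.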

Additional observations from a re-analysis of the deposited data

Results flagged for a closer look

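Apart from Nrip1 and Rarb, the genes below differed in their response to palmitate and to another ligand by a limma contrast of the effects, each adjusted over 22180 genes. Values are log2 differences of effects, palmitate minus the other ligand, and the sera of the 2 sides differ. Nothing was tested on their cause.

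Against GW1516, among the small RNAs, the difference was 3.91 for Rnu3a, with effects of 1.51 for palmitate and -2.40 for GW1516, 2.27 for Scarna17 (1.35 and -0.92) and 1.73 for Scarna6 (0.77 and -0.95). Lipid genes differed by -0.887 for Acaca, -0.787 for Scd1 and -0.872 for Cpt1a. Abca1, a cholesterol exporter close to background in full medium, differed by -0.977 (adjusted p = 0.0309), a call that held in 4 of the 12 fits without 1 array. Txnip differed by -0.792, with effects of -0.17 for palmitate and 0.62 for GW1516.

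Against retinoic acid the difference was 3.37 for Rnu3a (1.51 and -1.86), 1.88 for Scarna17 (1.35 and -0.53) and 1.76 for Scarna6 (0.77 and -0.99). Rxrb differed by 0.951. Cox4i1 differed by 0.383, a call that held in 4 of the 12 fits without 1 array. Acaca differed by -0.991 and Scd1 by -0.883. Cyp26b1, a retinoic acid target, differed by -2.58 and Abca1 by -1.44. For Nrip1 and Rarb the fitted differences were -1.58 and -1.12, but both genes were under background in palmitate and control cells, so these values allow no statement on a palmitate response. Ddit3 differed by -0.835 (0.25 and 1.08) and Txnip by -0.536 (-0.17 and 0.37), with calls that held in 3 and 0 of the 12 fits.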

How the results depend on the processing

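The palmitate count of 151 was 145 with no variance trend, 163 with a robust prior, 173 after quantile normalization, and stayed within 1.5 times with probe sets averaged. On the 10875 genes with a span it was 142 with arrays centred within bins of genomic span and 241 without, both chosen after the data were seen. It was 1 on the 6 full-medium arrays alone, 32 with arrays centred on their medians, 242 with dim genes left out, 86 at a fold of at least 1.5, 55 at an adjusted p under 0.01, and 62 to 141 without single arrays. With the replicate block it was 85, and 0 with the block on the 6 arrays alone, where 2021 genes had an unadjusted p under 0.05. The replicate block also lowered the other counts, to 122 against GW1516, from 280, and to 354 against retinoic acid, from 568. Median centring gave 71 and 322, and 426 genes differed from GW1516 with dim genes left out. Without single arrays these counts were 125 to 611 and 306 to 496. Of 37 named genes called, 28 kept their call with the block, 36 after quantile normalization and 10 after median centring. Tgm2 and Trib3 were the 2 of 32 uncalled genes that passed under some setting. Median centring ended the differences from GW1516 of Cpt1a, Abca1 and Txnip (adjusted p = 0.0545, 0.113 and 0.0848) and those from retinoic acid of Rxrb, Cox4i1, Ddit3 and Txnip (0.0636, 0.275, 0.0771 and 0.168). No called value turned its sign. The causes were not tested. Arrays have no counting depth, and genes under background allow no statement on change.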

Other observations

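The genes below were picked from the 151 calls after their values were seen, and no list test stands behind them. They are outside the 37 called genes of the naming rule, so the counts of kept calls do not cover them. Among genes of spliceosome proteins, calls went both ways. Prpf8 fell by 0.43 (log2), Snrnp200, its helicase partner, by 0.36 and the scaffold protein Srrm2 by 0.71, while Snrpb2, a protein of the U2 particle, rose by 0.39. Srrm2 had values of 5.69, 5.38 and 5.57 in palmitate cells, against 6.24, 6.31 and 6.22 in control cells, and its adjusted p in limma was 0.000974.

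Nuclear transport genes had calls in both directions. Kpnb1, the gene of importin β, had values of 6.67, 6.91 and 6.68 in palmitate cells, against 7.31, 7.45 and 7.59 in control cells, and fell by 0.70 (adjusted p = 0.000715). The pore gene Nup205 fell by 0.68 and Ipo9, another importin, by 0.40, while Cse1l, the export receptor that returns importin α to the cytoplasm, rose by 0.62. Its palmitate arrays, at 4.51, 4.01 and 4.66, came close to control arrays at 3.70, 3.97 and 3.66.

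Among DNA replication and repair genes outside the fixed list, Pole, the catalytic subunit of a leading-strand polymerase, fell by 0.65 and the ligase gene Lig3 by 0.81. Dnmt1, which maintains DNA methylation, fell by 0.50, Fancd2 by 0.64 and Bard1, the partner of BRCA1, by 0.84. Lig3 was 3.48, 3.41 and 3.48 in palmitate cells, against 4.22, 4.27 and 4.29 in control cells. The chromatin genes Kmt2a, Trrap, Baz1b and Chd4 fell by 0.85, 0.77, 0.80 and 0.44.

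In the secretory pathway, Uggt1, the glucosyltransferase that senses misfolded glycoproteins, fell by 0.54, Stt3b, a catalytic subunit of oligosaccharyltransferase, by 0.48, and the coatomer gene Copa by 0.44. Atp2a2 encodes the calcium pump of the ER. It was 6.89, 6.85 and 6.80 in palmitate cells, against 7.40, 7.56 and 7.49 in control cells, and fell by 0.64 (adjusted p = 0.00336). Calls among ER genes went both ways, since Emc2, Gpx8 and Hsp90b1, described above under the naming rule, rose by 0.88, 0.80 and 0.35. Sptan1, the α chain that pairs with the Sptbn1 product in spectrin, fell by 0.43 (adjusted p = 0.00293). In TGF-β signalling, the ligand gene Tgfb3 fell by 0.34 and the coreceptor gene Tgfbr3 by 0.58.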
